A study of Mus musculus with 20 samples.

Results

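Of 18659 stretches of the mouse genome that carried H3K27ac, an acetylated form of histone H3, in RAW264.7 cells, 4254 (22.8%) were narrow, lay at a gene end and were present in every one of 7 peak lists. A stretch, called a region here, was a run of bases where peaks from 2 or more of the 7 lists overlapped. It was kept when all 7 lists overlapped it, when it was under 3000 bp wide, and when it lay within 1 kb of either end of a protein-coding gene of the RefSeq annotation of GRCm38. Presence in the lists and the total width of a region were therefore chosen and are described without a test. The 4254 narrow regions lay at 5145 of 21883 protein-coding genes (23.5%). Of 8993 regions present in all 7 lists, 845 were at a gene end but were 3000 bp or wider (called broad here), 2354 lay inside genes away from their ends and 1540 lay between genes.

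RAW264.7 is a mouse macrophage-like line that forms osteoclasts when given RANKL, the osteoclast-inducing cytokine. Chromatin was crosslinked with 1% formaldehyde and immunoprecipitated for H3K27ac, and the libraries were read as single-end 50 bp reads. The 4 groups were untreated cells, cells given RANKL, cells given RANKL with the BET inhibitor I-BET, and cells given I-BET alone. RANKL was given at 50 ng/ml and I-BET at 500 nM, and each treatment lasted 4 h. The 7 lists were replicates 1 and 3 of the first 3 groups and the only I-BET library, numbered replicate 3. Lists numbered 2 existed for the first 3 groups and were not used to choose regions, and values and orders below are those of the 7 lists wherever the libraries numbered 2 are not named. The 10 input libraries were not analysed here. All groups are the same established line, and the labels name no separate cultures, so the spread between replicates may be technical and p-values measure only that spread.

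H3K27ac is deposited by the acetyltransferases p300 and CBP and marks nucleosomes beside active promoters and enhancers. Promoters of genes needed in every cell usually lie in CpG islands, and their acetylation tends to flank the start site in the same way in many cell types. Many of them are bidirectional: the starts of neighbouring genes lie head to head and share a nucleosome-free stretch. BET proteins bind acetylated lysines through bromodomains and bring the elongation kinase P-TEFb to promoters, and BET inhibitors block that binding. In a culture, a larger share of cells carrying the mark and more of it per cell cannot be told apart.

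Sequences between divergent starts show what lies inside a narrow region that 2 genes share. The first 4 below come from the pairs with the highest fold among shared regions with divergent starts in the RefSeq promoter table (GRCm38.p6), and the last 2 from head-to-head pairs well known in mammals. The letters are the + strand, and capitals mark every match on either strand to a searched motif, so that matches which touch or overlap run together. The Utp18 and Mbtd1 stretch is chr11:93885921-93886170, the 250 bases before the Mbtd1 start, and its capitals are CCAAT boxes.
Utp18/Mbtd1: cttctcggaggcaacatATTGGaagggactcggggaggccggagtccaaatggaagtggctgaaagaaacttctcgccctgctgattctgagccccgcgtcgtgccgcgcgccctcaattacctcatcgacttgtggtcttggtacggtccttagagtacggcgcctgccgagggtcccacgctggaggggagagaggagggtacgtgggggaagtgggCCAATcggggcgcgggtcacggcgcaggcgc
The Pld3 and 2310022A10Rik stretch is chr7:27553219-27553279, and its capitals are ETS motifs and GC boxes.
Pld3/2310022A10Rik: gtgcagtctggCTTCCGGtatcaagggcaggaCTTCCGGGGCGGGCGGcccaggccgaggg
The Eif3k and Map4k1 stretch is chr7:28981889-28982049, and its capitals are an E-box, an NRF1 motif and a CCAAT box.
Eif3k/Map4k1: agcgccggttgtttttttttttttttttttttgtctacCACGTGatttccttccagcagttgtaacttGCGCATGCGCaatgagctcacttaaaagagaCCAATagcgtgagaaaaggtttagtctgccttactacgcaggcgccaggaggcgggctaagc
The Slx1b and Bola2 stretch is chr7:126695784-126695999, and its capitals are a CCAAT box, GC boxes and a PU.1 motif.
Slx1b/Bola2: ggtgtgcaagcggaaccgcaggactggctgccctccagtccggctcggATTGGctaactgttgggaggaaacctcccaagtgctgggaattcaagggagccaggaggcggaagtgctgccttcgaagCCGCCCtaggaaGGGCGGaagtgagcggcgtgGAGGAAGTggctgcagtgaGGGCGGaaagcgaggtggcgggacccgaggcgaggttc
The Hspd1 and Hspe1 stretch is chr1:55087933-55088147, and its capitals are GC boxes and an ETS motif that reads on both strands.
Hspd1/Hspe1: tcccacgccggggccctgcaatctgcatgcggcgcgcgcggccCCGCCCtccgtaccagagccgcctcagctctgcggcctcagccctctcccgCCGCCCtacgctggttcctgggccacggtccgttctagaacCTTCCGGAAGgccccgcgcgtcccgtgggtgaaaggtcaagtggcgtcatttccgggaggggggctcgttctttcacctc
The Mrps12 and Sars2 stretch is chr7:28741822-28741967, and its capitals are CCAAT boxes and a GC box.
Mrps12/Sars2: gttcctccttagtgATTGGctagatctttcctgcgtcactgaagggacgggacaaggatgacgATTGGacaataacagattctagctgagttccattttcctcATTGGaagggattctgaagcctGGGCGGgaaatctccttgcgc
G and C made up 63.6%, 72.1%, 46.0%, 64.8%, 70.2% and 49.3% of these 6 stretches in the order printed, and no TATA box was matched in any of them.

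Narrow regions had a median width of 1567 bp, with quartiles of 1213 and 2020 bp and a range from 442 to 2998 bp. Just inside the width limit were the regions of Hnrnpul1 and Axl (2998 bp), Ifrd1 (2997 bp) and Ppia (2993 bp), and just outside it were those of Emg1 and Phb2 (3003 bp), Ybx1 (3003 bp) and Adamtsl4 (3005 bp). The narrowest were at Ttc16 and Tor2a (442 bp), Ppp2r5b (446 bp) and Uqcc2 (453 bp). The limit ran through a continuous range of widths. Genes at narrow regions had a median length of 20939 bp, beside 16291.5 bp for genes at broad regions and 17170 bp for all protein-coding genes. On chromosome X, 56 of 966 genes (5.80%) lay at a narrow region, against 29.4% of the genes of chromosome 11, and no member lay on chromosome Y.

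The lists differed in size and in the significance of their peaks. They held 13368 to 17794 peaks in the 7 libraries of the rule, 9893 in untreated replicate 2, 141905 in RANKL replicate 2 and 6041 in RANKL+I-BET replicate 2. The highest peak over a narrow region had a median -log10 q, the authors' adjusted significance of a peak, of 1.86 in untreated replicate 1 and of 2.73 to 3.88 in the other 6 libraries. The lowest -log10 q of any listed peak was 2.00 in RANKL+I-BET replicate 2 and 0.319 to 0.655 in the other lists. In all 7 lists, 3453 narrow regions (81.2%) reached a q of 0.05. When peaks were limited to a -log10 q of at least 5, 1 narrow region was left in all 7 lists. "Constitutive" therefore holds at the authors' own threshold and for these 7 lists.

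The 10 regions with the highest fold in their weakest list lay at genes of varied function. Fold means column 7 of the authors' peak lists, taken from the highest peak over a region, and it is the authors' value for that peak. The region at the start of Srsf7, an SR-family splicing factor, and at an annotated end of Gemin6, of the SMN complex, had a fold of 3.79 and 3.89 in the untreated libraries. It had a fold of 4.07 and 7.88 with RANKL, 3.44 and 4.98 with RANKL and I-BET, and 4.67 with I-BET. Both RANKL values were above both untreated ones, and the RANKL+I-BET values overlapped both groups. Lists have scales of their own: the lowest value, in RANKL+I-BET replicate 1, stood only at percentile 48.8 of the peaks of that list, and the Srsf7 value in RANKL replicate 3 at percentile 99.8. At Utp18, of the small-subunit processome, and Mbtd1, which share a start region, the folds were 3.74 and 3.27 untreated, 4.23 and 3.44 with RANKL, 3.39 and 4.09 with RANKL and I-BET, and 3.38 with I-BET. The groups overlapped at that pair. The other 8 were Atg12 (a ubiquitin-like autophagy protein) with Ap3s1 (an AP-3 adaptor subunit), Necap2, Wtap (part of the m6A methyltransferase), Xndc1 with Xntrpc, Depdc5 (a GATOR1 subunit), Rab1b (an ER-to-Golgi GTPase) with Klc2 (a kinesin light chain), Lsm14a (a P-body protein), and Pld3 with 2310022A10Rik. Their lowest folds ran from 3.05 to 3.23, and that of Necap2 stood at percentile 38.5 of its list.

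A region was within reach of 1 gene in 3251 cases and of 2 or more genes in 1003 cases (23.6%), of which 965 had 2 genes, 35 had 3, 2 had 4 and 1 had 5. The 5-gene region was that of Gm20517, Usp49, Tomm6, Frs3 and Prickle4. Among broad regions 233 of 845 (27.6%) reached 2 or more genes. By arrangement, 2485 narrow regions (58.4%) lay at the listed start of their only gene, and 135 (3.17%) lay away from it, at the downstream end of the gene in 93 and at its outermost upstream end in 42. Another 427 (10.04%) lay between divergent starts, which were a median of 162 bp apart (quartiles 79.5 and 324 bp). The start of 1 gene met an annotated end of another in 355 (a downstream end in 192, an upstream end in 46 and a gene with no listed start in 122, some in more than 1 way). Starts faced each other or overlapped in 74, starts ran on the same strand in 20, and 10 held ends only. The promoter table held no start for the gene of 631 regions with 1 gene, nor for every gene of 117 shared regions. Regions at divergent starts had a median width of 1727 bp, beside 1539 bp at single starts.

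Head-to-head genes were often at a narrow region. The annotation held 748 pairs of divergent genes whose starts were within 1000 bp of each other. Of these, 434 (58.0%) shared a narrow region and 57 (7.62%) shared a broad one. Of the genes in such pairs, 60.7% lay at a narrow region, beside 20.7% of the other genes with a known start. A region at either start is within reach of both genes of such a pair. Of 10 well-known pairs, 6 shared a narrow region: the mitochondrial chaperonins Hspd1 and Hspe1, Mcm4 with Prkdc, Mrps12 with Sars2, Surf1 with Surf2, Gart with Son, and the purine synthesis genes Ppat and Paics. Tbp with Psmb1 and Ranbp1 with Trmt2a shared a broad region, and Atm with Npat shared neither.

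Covered widths at 2 of the known pairs are given as examples. At Hspd1 and Hspe1, peaks covered 1262 and 1841 bp of the 2885 bp region in untreated replicates 1 and 3, 2410 and 2505 bp with RANKL, 2577 and 2692 bp with RANKL and I-BET, and 2530 bp with I-BET. The untreated libraries were the lowest, and the groups given RANKL lay above them. At Mrps12, a mitochondrial ribosomal protein, and Sars2, a mitochondrial seryl-tRNA synthetase, peaks covered 544 and 1019 bp of 1019 bp untreated, 841 and 888 bp with RANKL, 958 and 1018 bp with RANKL and I-BET, and 858 bp with I-BET. Here the untreated libraries held both the lowest and the highest value. Pairs from the same gene class included Mrpl46 with Mrps11, Hars with Hars2, Ube2q2 with Fbxo22, Fbxo6 with Fbxo44, and 6 pairs of zinc finger genes such as Zbtb6 with Zbtb26.

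Acetylation at single starts leaned into the gene. The centre of the region lay a median of 170.5 bp downstream of the start (quartiles -3.5 and 371.5 bp), and on the downstream side in 1851 of 2485 regions (74.5%). Peaks covered the position 200 to 250 bp downstream in more regions than any other position in each of the 7 lists: in 65.5% of regions in untreated replicate 1 and in 90.0% to 96.9% in the other 6. Within 2000 bp of the start, untreated replicate 3 covered a mean of 753.8 bp downstream and 443.8 bp upstream, and RANKL replicate 3 covered 885.1 and 543.8 bp. Around the midpoint of divergent starts the sides were nearly equal, at 733.5 and 688.9 bp in untreated replicate 3 and at 841.7 and 770.5 bp in RANKL replicate 3.

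**Figure D1:**
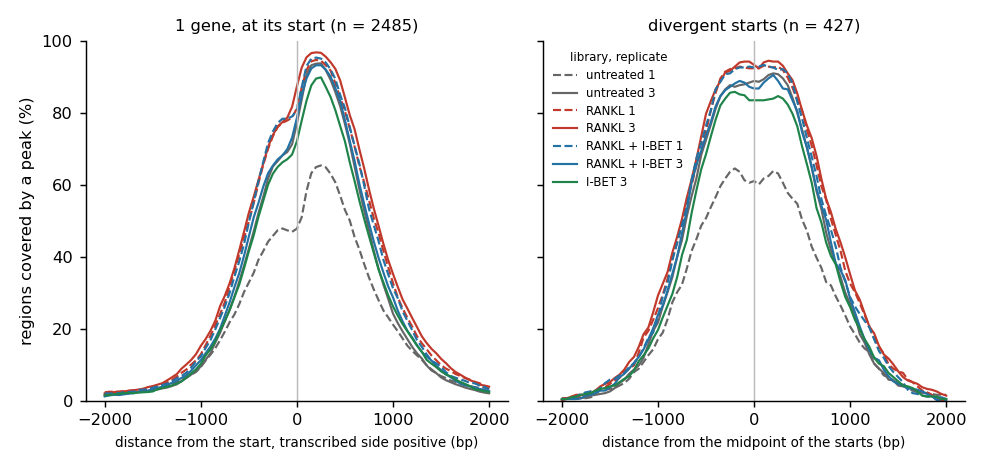
Share of narrow regions covered by a peak (y axis, percent) against distance in bp (x axis), for 2485 regions at the start of 1 gene (left) and 427 regions at divergent starts (right), 1 line per library of the rule. Coverage at single starts peaks 200 to 250 bp inside the gene in every library, coverage at divergent starts is nearly symmetric, and untreated replicate 1 is lowest in both panels.

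Several classes of the basic machinery of the cell had most of their genes at narrow regions. Of 78 cytosolic ribosomal protein genes, 62 (79.5%) lay at a narrow region and 13 more at a broad one only, beside 23.5% and 4.94% for all protein-coding genes. Shares at narrow regions were 77.6% for proteasome subunits (38 of 49), 76.0% for mitochondrial import genes (19 of 25), 68.2% for oxidative phosphorylation subunits (58 of 85) and 67.6% for aminoacyl-tRNA synthetases (25 of 37). They were 65.0% for ribosome biogenesis factors (26 of 40), 62.2% for splicing factors (51 of 82), 61.5% for mitochondrial ribosomal proteins (48 of 78) and 57.9% for RNA polymerase subunits and general transcription factors (44 of 76). Vesicle traffic genes (103 of 192), Mediator subunits (16 of 30), chaperones (44 of 87), DNA replication and repair genes (44 of 88), chromatin regulators (36 of 74), nuclear pore genes (14 of 29) and cell cycle genes (32 of 71) ran from 53.6% down to 45.1%. Ubiquitin pathway genes (77 of 182), Tmem genes (77 of 238) and zinc finger transcription factors (136 of 465) were closer to the genome-wide share, at 42.3%, 32.4% and 29.2%. The classes were defined by symbol and by textbook lists, and the shares are descriptions with no set test.

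**Figure D2:**
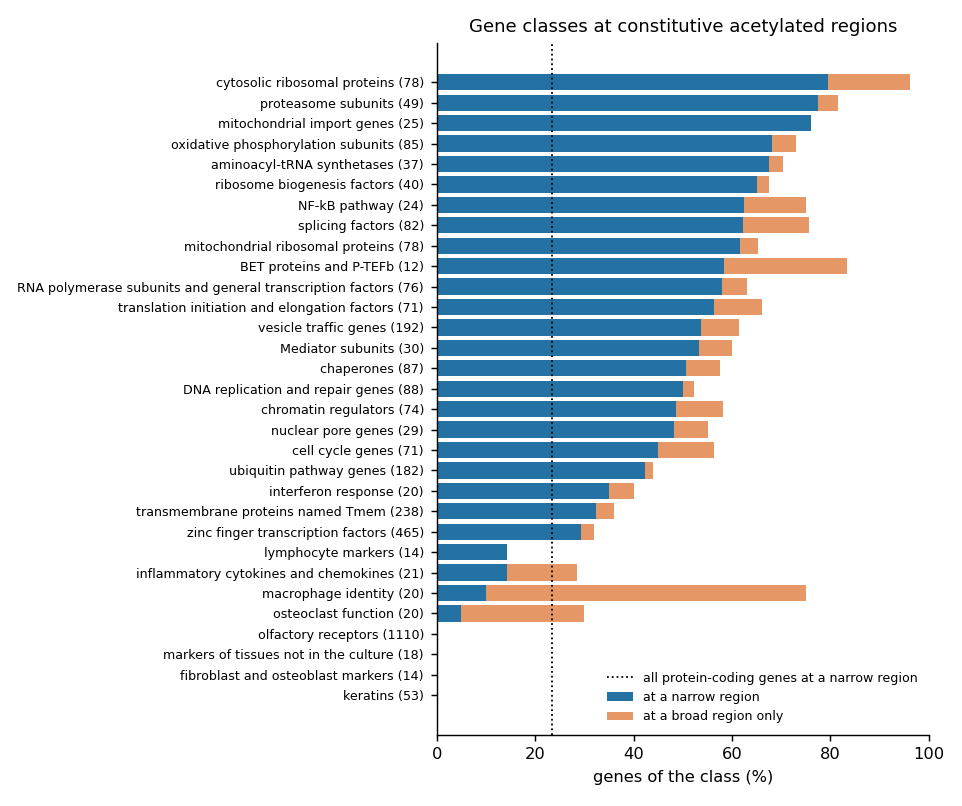
Share of each gene class (x axis, percent of the class's genes, with the number of genes in brackets) at a narrow region (blue) or at a broad region only (orange). The dotted line is the share of all protein-coding genes at a narrow region (23.5%); ribosomal, proteasome and mitochondrial classes are far to its right, and macrophage identity genes are mostly orange.

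Widths differed among the machinery classes. Median widths of the narrow region of a gene, taken over the genes of a class, were 1311.5 bp for oxidative phosphorylation subunits, 1326.5 bp for mitochondrial ribosomal proteins and 1376.5 bp for proteasome subunits, and 1946.5 bp for cytosolic ribosomal proteins and 1940 bp for chaperones. Within these classes the regions with the highest lowest fold were those of Cox7a2l and Atp5b (the ATP synthase beta subunit) for oxidative phosphorylation, at 2.83 and 2.79. They were those of Rps14 and of Rpl35a with its neighbour Iqcg for cytosolic ribosomal proteins, at 2.56 and 2.54. For proteasome subunits they were Psmd3 and Psmc5 with Ftsj3, at 2.45 and 2.41, and for chaperones Dnajc5 and Dnajc7 with Nkiras2, at 2.94 and 2.73. Sars and Lars, cytosolic seryl- and leucyl-tRNA synthetases, stood at 2.97 and 2.72.

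Genes that mark the macrophage were seldom at narrow regions. Of 20 macrophage identity genes, Itgam (the integrin CD11b) and Fcgr1 (the high-affinity IgG receptor) lay at a narrow region, and 13 lay at a broad region only, among them Csf1r, Spi1, Cd68 and Lyz2. Itgam was covered over 759 and 570 bp of 1745 bp untreated, 1461 and 1254 bp with RANKL, 1671 and 884 bp with RANKL and I-BET, and 637 bp with I-BET, so each library given RANKL was above the others among the 7 lists. In the libraries numbered 2 it was covered over 316 bp untreated, 1745 bp with RANKL and 0 bp with RANKL and I-BET. The median over all narrow regions in those lists, absent regions counted as 0 bp, was 482, 1331 and 133 bp. Of 20 osteoclast genes, Snx10 was at a narrow and 5 were at a broad region only, including Ctsk (cathepsin K) and Tnfrsf11a (the RANKL receptor). None of 53 keratin genes, 14 fibroblast and osteoblast markers or 18 markers of other tissues lay at either kind, and 2 of 1110 olfactory receptor genes lay at a narrow one. Of 14 lymphocyte markers, Cd79a shared its region with Arhgef1, and Cd3d had a fold of 1.03 in its weakest list. Thus 15 of 20 macrophage genes lay at a narrow or broad region, and 0 of 18 markers of other tissues did.

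Pathways that the treatments act on were among the narrow regions too. Of 24 NF-kB pathway genes, 15 (62.5%) lay at a narrow region, among them the subunits Nfkb1 and Rela, the kinases Chuk and Ikbkb, and Traf2 and Traf3. Rel, Nfkbia and Birc3 lay at a broad region only. Of 12 genes of BET proteins and P-TEFb, 7 lay at a narrow region, among them the cyclins Ccnt1 and Ccnt2, Larp7, Aff4, Ell and Ell2. Brd2, Cdk9 and Hexim1 lay at a broad one only. Of 20 interferon response genes 7 lay at a narrow region (Irf9, Oas2, Oasl1, Usp18, Ddx58, Dhx58 and Bst2), and of 21 cytokine genes 3 did (Ccl4, Ccl9 and Tgfb1).

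The promoters were rich in CpG, as was the case for broad regions. A promoter here is the 300 bases from 250 before to 50 after a start, in the RefSeq table, which held a start near the region for 3888 genes at narrow and 766 at broad regions. Median GC was 62.0% at narrow and 62.3% at broad regions, beside 52.0% for genes with no region at an end and 56.3% for all starts. The median number of CpG was 24, 22, 5 and 13 in the same order, and the ratio of observed to expected CpG was 0.843, 0.776, 0.304 and 0.567.

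Some motif shares differed between narrow and broad regions, and others hardly did. The ETS motif CCGGAAG was found on either strand in 26.2% of promoters at narrow regions, 13.7% at broad regions, 4.21% of genes with no region and 11.6% of all starts. The NRF1 motif GCATGCGC was found in 7.28%, 4.05%, 1.56% and 3.51%, and the YY1 motif AAGATGGCG in 5.07%, 2.48%, 0.374% and 1.83%. The GC box GGGCGG stood in 68.4%, 65.3%, 31.9% and 46.2%, the E-box CACGTG in 12%, 11.1%, 5.72% and 7.84%, and the cyclic AMP element TGACGTCA in 4.14%, 2.35%, 1.21% and 2.23%. The ZNF143 core ACTACAATT was rare, at 1.00%, 0.392%, 0.213% and 0.508%. In the other direction, the TATA box TATAAA stood in 5.71%, 11.6%, 17.2% and 12.6%, and the AP-1 motif TGANTCA in 3.76%, 6.14%, 8.95% and 6.99%. The macrophage factor motif PU.1, GAGGAAGT, stood in 3.58%, 5.22%, 3.02% and 3.13%, so it was lower at narrow than at broad regions only. The CCAAT box was at 36.9%, 37.3%, 37.8% and 38.2%. PU.1 belongs to the ETS family and the letters of the motifs overlap in part. Median GC was alike at narrow and broad regions (62.0% and 62.3%) and lower at genes with no region (52.0%). The ratio of observed to expected CpG was 0.843 at narrow and 0.776 at broad regions. Neither G+C nor CpG content was tested as a source of the motif shares. Divergent starts held the ETS motif in 32.4% and the CCAAT box in 42.4%, beside 23.7% and 35.7% at single starts. Starts of a divergent pair were a median of 162 bp apart, so their promoters often overlap. The same match can then count for both genes, which does not happen at single starts. Among the classes at narrow regions, ETS shares ran from 46.7% at cytosolic ribosomal protein promoters (45 starts) to 16.7% at chromatin regulators (24 starts) and 9.09% at NF-kB genes (11 starts). The Hspd1 and Pld3 stretches printed above are examples of the ETS motif, and that of Eif3k of the NRF1 motif.

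**Figure D3:**
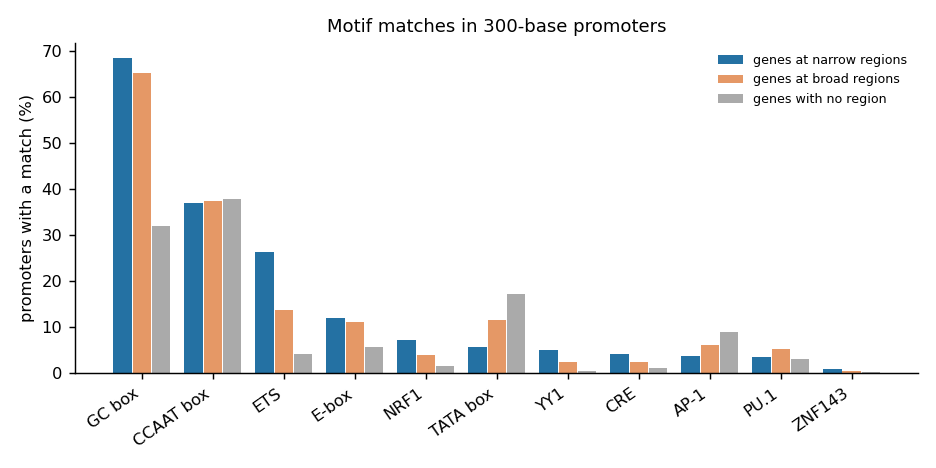
Share of 300-base promoters with at least 1 match on either strand (y axis, percent) for each of the 11 motifs (x axis), for genes at narrow regions (blue), at broad regions (orange) and with no region at an end (grey). ETS, NRF1 and YY1 matches are most frequent at narrow regions and TATA box matches at genes with no region.

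Mean covered width of the narrow regions was higher in both RANKL libraries than in either untreated one, by an amount that depended on which untreated library was used. The mean covered width was 908 and 1259 bp in untreated replicates 1 and 3, 1370 and 1431 bp with RANKL, 1380 and 1295 bp with RANKL and I-BET, and 1212 bp with I-BET. The group means were 1084 ± 248 bp (SD, n = 2) untreated, 1400 ± 43.5 bp (SD, n = 2) with RANKL and 1338 ± 60.1 bp (SD, n = 2) with RANKL and I-BET, and 2 libraries against 2 allow no exact two-sided p under 0.333. Untreated replicate 1 stood apart: peaks covered 55.5% of the summed width of the narrow regions there and 74.0% to 87.4% in the other 6 libraries, and 8.72% of its regions were split among 2 or more peaks, beside 0.094% to 1.86%. Broad regions were also lowest in untreated replicate 1, at 3238 bp, and highest in RANKL replicate 3, at 4408 bp.

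**Figure D4:**
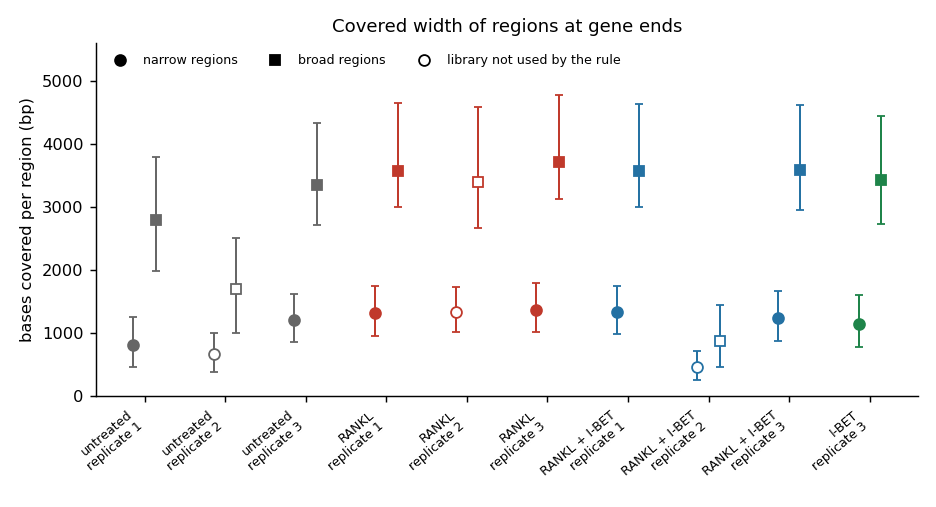
Bases covered by peaks per region (y axis, bp) in each of the 10 libraries (x axis) for narrow (circles) and broad (squares) regions: points are medians and bars the quartiles over the regions a library holds; open symbols are the libraries numbered 2. Narrow regions sit between 812 and 1368 bp in the 7 libraries of the rule, with untreated replicate 1 lowest.

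Region by region, no change in covered width passed the test. Log2 widths (with 50 bp added) of all 8993 regions present in 7 lists were fitted with limma in the 6 libraries of the first 3 groups. Benjamini-Hochberg adjustment was used. Regions gained or lost outright in a group were not among them, and covered width could not exceed a width drawn from the same lists. When 14555 regions held by at least 4 of the 7 lists were fitted, limma also called 0 in each comparison. The percentage of regions called was 0 in RANKL against untreated, 0 in RANKL+I-BET against RANKL and 0 in RANKL+I-BET against untreated. Among the narrow regions, limma called 0 in each comparison, while 306, 43 and 204 of them had an unadjusted p below 0.05. Adjusted p from limma was never lower than 0.337, 1 and 0.473. The median log2 difference of narrow regions was 0.395 in RANKL against untreated, beside 0.331 over all 8993, and it was 0.10 without untreated replicate 1. When each list was centred on its own median, which shifted the median of all regions from 0.331 to -0.027, the narrow regions had a median of 0.038. Without untreated replicate 3 limma called 1079 narrow regions in this comparison, all of them wider, against the lone and low untreated replicate 1, and it called 20.9% of all regions (1884 of 8993). On simulated data with the same spread, log2 changes were planted in 200 of 8993 regions. The test found 0% of planted changes of 1, 45.0% of 2 and 72.5% of 3, so only large changes were found in that setting. Simulated widths were not capped at the width of the region, as real ones are. These shares are therefore no measure of what could be detected in the real lists.

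RANKL and untreated widths did not overlap at many narrow regions, as at other regions. Both RANKL libraries were above both untreated ones at 1716 narrow regions (40.3%), where 38% of all 8993 regions were, and below them at 109 (2.56%), where 2.91% of all were. The contrasts with the smallest limma p, chosen after their values were seen, were at Egr1, Trappc12 with Eipr1, and Nfkbie. At Egr1, an immediate-early transcription factor, peaks covered 325 and 340 bp of 2206 bp untreated, 2206 and 2181 bp with RANKL, 2166 and 1848 bp with RANKL and I-BET, and 1458 bp with I-BET. The untreated libraries were lowest by far, and the log2 difference of RANKL against untreated was 2.55 (SE 0.257, limma adjusted p = 0.337). At Nfkbie, which encodes an inhibitor of NF-kB, the values were 654 and 458 bp of 2762 bp untreated, 2307 and 2762 bp with RANKL, 2095 and 2019 bp with RANKL and I-BET, and 579 bp with I-BET. I-BET alone was within the untreated range there, and the log2 difference with RANKL was 2.11 (SE 0.271, limma adjusted p = 0.43). In the libraries numbered 2, which had no part in the choice of regions, Egr1 was covered over 1076 bp untreated, 2206 bp with RANKL and 148 bp with RANKL and I-BET, and Nfkbie over 984, 2762 and 0 bp. The median over all narrow regions had the same order in these lists, at 482, 1331 and 133 bp. This order is therefore not particular to Egr1 and Nfkbie.

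No narrow region passed the test for RANKL+I-BET against RANKL, and the median difference depended on the libraries used. The median log2 difference of RANKL+I-BET against RANKL was -0.052 over narrow regions and -0.053 over all regions, and its sign turned to 0.029 with centred lists and to 0.014 without RANKL+I-BET replicate 3. With the libraries numbered 2 added it was -1.075 over narrow and -1.06 over all regions, with 4128 of the 4254 narrow regions below 0 and limma calling 0. The list of RANKL+I-BET replicate 2 had a lowest -log10 q of 2.00 and covered 3.44 Mb. That of RANKL replicate 2 had a lowest -log10 q of 0.616 and covered 184.6 Mb. How far these list differences account for the -1.075 was not tested. Both RANKL+I-BET libraries were below both RANKL ones at 890 narrow regions (20.9%), where 21.7% of all regions were, and above them at 450 (10.6%), where 10.5% were. Against untreated cells, both were above at 1417 (33.3%, all regions 30.9%) and below at 148 (3.48%, all regions 4.78%). The regions named next had the smallest p and were chosen after their values were seen. At Rab32, a GTPase of lysosome-related organelles, peaks covered 939 and 706 bp of 2761 bp untreated, 2510 and 2761 bp with RANKL, 1031 and 720 bp with RANKL and I-BET, and 739 bp with I-BET. Both RANKL libraries stood above the other 5, and RANKL+I-BET against RANKL was -1.56 on the log2 scale (SE 0.304, limma adjusted p = 1). At Ubash3b, a phosphatase-family signalling protein, the order was the opposite: 1184 and 1864 bp untreated, 409 and 658 bp with RANKL, 1888 and 1845 bp with RANKL and I-BET, and 1972 bp with I-BET. Its RANKL+I-BET against RANKL difference was 1.75 (SE 0.362, limma adjusted p = 1). The libraries numbered 2 did not show this order at Ubash3b, with 208 bp untreated, 1441 bp with RANKL and 343 bp with RANKL and I-BET. At Rab32 they had 1039, 1556 and 383 bp. Their medians over all narrow regions were 482, 1331 and 133 bp.

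The genes of the treated pathways gave small counts. Of the 7 narrow regions of BET and P-TEFb genes, 6 were wider in both RANKL libraries than in both untreated ones and 4 were narrower in both RANKL+I-BET libraries than in both RANKL ones, with no limma call, where 38% and 21.7% of all regions were. Ell, an elongation factor, was covered over 935 and 1377 bp of 2579 bp untreated, 2523 and 2579 bp with RANKL, 2491 and 1171 bp with RANKL and I-BET, and 920 bp with I-BET. The RANKL+I-BET libraries differed from each other there by more than the untreated ones did. Of the 18 narrow regions of NF-kB genes, 7 were above and 0 below untreated in both RANKL libraries, again with no limma call. This is near the share over all regions, 38% above and 2.91% below. Traf3, a signalling adaptor, rested on untreated replicate 1: it was covered over 198 and 1619 bp untreated and 2837 and 2160 bp with RANKL.

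I-BET alone had 1 library and no replicate check, so it was set beside the untreated library of the same number, with the other treated libraries of that number, which share this control. Against untreated replicate 3, 113 narrow regions (2.66%) were at least 2-fold wider with I-BET and 214 (5.03%) at least 2-fold narrower, where 3.91% and 4.61% of all regions were. For RANKL replicate 3 the numbers were 200 (4.70%) and 17 (0.40%), where 5.83% and 0.689% of all regions were. For RANKL+I-BET replicate 3 they were 135 (3.17%) and 101 (2.37%), where 4.28% and 2.6% were. The median log2 ratios were -0.047, 0.147 and 0.039. The regions named next were chosen after their values were seen, for a lower width with I-BET. Helb, a DNA helicase, was covered over 1360 and 1448 bp in untreated replicates 1 and 3 and 319 bp with I-BET. It was covered over 1616 and 1613 bp with RANKL and 1098 and 536 bp with RANKL and I-BET. Slc16a10, an amino acid transporter, was covered over 977 and 2482 bp in untreated replicates 1 and 3 and 644 bp with I-BET. It was covered over 2876 and 2919 bp with RANKL and 1283 and 1227 bp with RANKL and I-BET. At Slc16a10 both RANKL+I-BET values thus lay between the untreated ones. In the libraries numbered 2 (untreated, RANKL, and RANKL with I-BET), the median over all narrow regions was 482, 1331 and 133 bp. There Helb was covered over 776, 1447 and 0 bp, and Slc16a10 over 0, 780 and 0 bp. Both were among 50 narrow regions that were at least 2-fold narrower with I-BET alone and also below RANKL in both RANKL+I-BET libraries, which is 23.4% of the 214 and 5.62% of the 890, beside 26.99% and 5.74% over all regions.

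The fold of the peaks differed between replicate numbers as well as between treatments. Its median over narrow regions was 2.63 and 2.42 in untreated replicates 1 and 3, 3.13 and 2.59 with RANKL, 3.52 and 2.49 with RANKL and I-BET, and 2.54 with I-BET. Replicate 1 was above replicate 3 in each of the 3 groups. Within replicate 1 the values lay between 2.63 and 3.52, and within replicate 3 between 2.42 and 2.59. Each list has its own scale, so ranks within the list were also taken: the median narrow region stood at percentile 49.4 to 52.1 of the peaks of its own list in all 7. Broad regions stood at percentile 53.3 to 63.7. Fold is taken from the highest peak, and 6.75% to 52.1% of broad regions held 2 or more peaks, beside 0.094% to 8.72% of narrow ones. How far this raised the percentile of broad regions was not tested. Wider narrow regions had only slightly higher folds, with a median of their lowest fold of 1.97 among the narrowest, up to the lower quartile of width, and 2.12 among the widest, above the upper quartile.

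**Figure D5:**
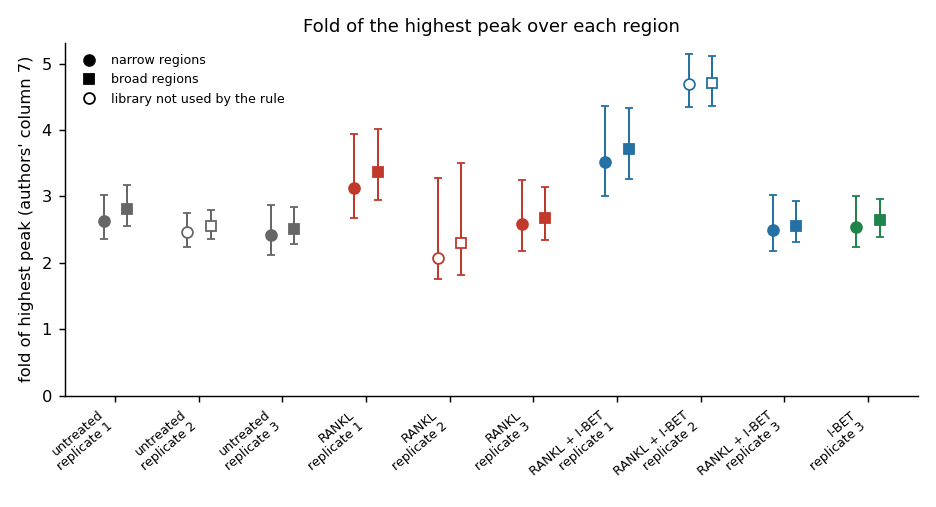
Fold of the highest peak (y axis, the authors' column 7) in each of the 10 libraries (x axis) for narrow (circles) and broad (squares) regions: points are medians and bars quartiles over regions held. Replicate 1 lies above replicate 3 with RANKL and with RANKL and I-BET, and RANKL+I-BET replicate 2 is highest at 4.69.

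The 3 libraries numbered 2 show how far the regions recurred outside the lists that chose them. Untreated replicate 2 held 3249 narrow regions (76.4%), RANKL replicate 2 held 4232 (99.5%) and RANKL+I-BET replicate 2 held 2208 (51.9%). The same shares were 95.4%, 99.5% and 76.0% for broad regions, 62.3%, 91.6% and 40.1% for regions inside genes and 67.9%, 91.1% and 43.4% for regions between genes. The size of the lists moved with these shares, and RANKL replicate 2 covered 184.6 Mb and had peaks at 14 of the 18 markers of other tissues, where the other 9 lists had 0. Held by all 10 lists were 1963 narrow regions (46.1%), with 83.9% of those of cytosolic ribosomal proteins, 71.1% of proteasome subunits, 69.8% of chaperones and 56.4% of divergent starts, beside 36.8% of chromatin regulators and 31.6% of mitochondrial import genes. By width the shares ran from 31.6% below the lower quartile to 59.2% above the upper one, and how far width accounts for the order of the classes was not tested.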

How the data were processed

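H3K27ac ChIP-seq of RAW264.7 cells was analysed from 10 deposited peak lists, 1 per immunoprecipitated library, of 20 samples in all. The genome build is mm10 (GRCm38) and the tools were FastQC, Bowtie2 and MACS2, per the submitters' processing notes, which list them with no versions and no settings. Settings for peak calling are not given in the sources used here. The lists hold positions, a score (column 5), the fold (column 7, a ratio in the authors' unit), and the −log10 p and −log10 q of the authors for each peak. They hold no counts, so the depth is unknown and no counting interval is given.

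Regions were built from the 7 lists of replicates 1 and 3 (stretches covered by at least 2 lists, touching peaks of a list merged), and a list held a region with 1 bp of overlap. Gene ends came from RefSeq's annotation of GRCm38 and starts from its promoter table (4216 of the 5145 genes matched). Covered width was tested with limma 3.58.1 in R 4.3.3 (trended prior, 3 residual degrees of freedom, call at an adjusted p of 0.05) over all 8993 regions held by 7 lists. The test and the region code were tested on simulated data. Alternatives covered the distance, the width limit, the consensus, the overlap, the q threshold, scaling, pseudocount, libraries and a replicate block. No region was called, so none was named by that part of the rule. Many regions were named as those with the highest fold in their weakest list (10 in all, 10 among shared ones and up to 4 per gene class). Others were the neighbours of the width limit, known pairs, and members of the macrophage, NF-kB and BET lists. Further regions were named after their treatment values were seen. Egr1, Trappc12 with Eipr1, Nfkbie, Rab32 and Ubash3b were named by smallest limma p, and Helb and Slc16a10 by lower width with I-BET. The members, gene classes and motifs were chosen with earlier results of these data known. Of 32 gene classes, 31 matched the annotation; replication-dependent histone genes were searched by an older symbol form that it does not use, and are not analysed here. Results for some members of the lists and pairs are not reported here.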

Additional observations from a re-analysis of the deposited data

How the results depend on the processing

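Of 4254 narrow regions, 1003 of them shared, 1758 and 444 were left when 50% of the region had to be covered in each list, 1963 and 525 when the libraries numbered 2 also had to hold it, and 1 and 0 with a -log10 q of at least 5. Distances of 500 and 2000 bp gave 4120 and 4444 regions, width limits of 2000 and 4000 bp gave 3145 and 4651, and a consensus of at least 1 or 3 lists gave 3965 and 4356. Leaving out each library in turn gave 4278 to 5162 regions and 1007 to 1157 shared ones, the highest without untreated replicate 1. The number of narrow regions that limma called for covered width was 0 under every setting run except without untreated replicate 3, where 1079 were called in RANKL against untreated and 910 in RANKL+I-BET against untreated, all wider, of 1884 and 1557 called over all 8993 regions (20.9% and 17.3%); over the left-out libraries the counts ran from 0 to 1079, from 0 to 0 (RANKL+I-BET against RANKL) and from 0 to 910. With an arm of 1 library, its spread is assumed to be that of the other groups. The replicate number as a block, which the labels do not tie to a shared culture or day, left 0 calls in each comparison, with 300, 39 and 211 narrow regions at an unadjusted p under 0.05 and the same medians (0.395, -0.052 and 0.331). Adding the libraries numbered 2 moved the medians to 0.779, -1.075 and -0.06. Centring together with leaving out untreated replicate 1, an alternative chosen after seeing the data, gave medians of -0.074, 0.029 and -0.039. The cause of these moves was not tested. Lists without counts leave depth unknown, so a region missing from a list may be below the reach of that library.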
